A study of Schizosaccharomyces pombe with 24 samples.

Results

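The mug (meiotically upregulated) and meu (meiotic expression upregulated) genes of fission yeast, Schizosaccharomyces pombe, were followed across 7 mutants of the mRNA 3′-processing machinery. The members were the protein-coding genes whose symbol is mug or meu followed by digits. The rule uses names and no measured value, but it was set with earlier results of these data known. With mug8, mug10 and the genes of several named cosmids left out by the rule, 108 of the 6988 genes in the count table were members, 89 with a mug and 19 with a meu symbol. Of these, 105 had enough reads to be tested, among 6287 genes tested in all. Messenger RNA levels were measured by RNA-seq of poly(A)+ RNA with a directional kit, with 3 replicate libraries in each of 8 groups. The labels do not say how the replicate cultures were separated beyond calling them biological.

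All 8 groups were haploid cells in log phase in YES, a rich medium, at 30 °C. The wild type (WT) was h- and carried no marker. The strains with ysh1-L74F, pta1-T524M, msi2-G252E and either of 2 pfs2 alleles, pfs2-V180F and pfs2-E104A, were h- and also carried asp1-WT::kanMX, a drug-resistance marker with wild-type asp1. The pla1-Y86L strain was h- with kanMX at pla1 itself, and cft1-L249Q was h+ with no marker in its label. Marker and mating type therefore cannot be told apart from the mutations in comparisons with WT. Cft1, Pfs2, Pta1, the endonuclease Ysh1 and the poly(A) polymerase Pla1 act in the work of the cleavage and polyadenylation factor, which cuts and polyadenylates nascent transcripts. Msi2 is an RNA-binding protein.

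Fission yeast enters meiosis when it is starved of nitrogen and cells of opposite mating type mate; pairing and recombination of chromosomes, the meiotic divisions, and the building of a forespore membrane and a spore wall follow. The mug and meu genes were named because their transcripts rise in that programme. In growing cells many meiotic transcripts are held low, both because their transcription factors (Ste11, Mei4) are scarce and because the RNA-binding protein Mmi1 marks some of them for decay by the nuclear exosome, a route in which polyadenylation by Pla1 takes part. Of the 108 members, 69 carry only their own symbol as product in the annotation used, so no role is given for them here.

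Most members were present at low but measurable levels in growing WT cells. Levels are given as CPM, the reads of a gene relative to the scaled library size. They are not divided by gene length, so tests were made only between groups, within a gene. The medians over genes given here and the later division of genes by level are not corrected for length. The 24 libraries held 19368216 to 29297880 counted reads. In WT the tested members ranged from 0.0952 to 473 CPM with a median of 12.5 CPM, against a median of 53.2 CPM over all genes tested; 9 members were under 1 CPM and 8 over 100 CPM. The 3 members that were not tested, mug116, mug96 and mug112, had at most 5, 3 and 8 reads in any library. Summed over members, the level was 3152 ± 19.6 CPM in WT (SD, n = 3) and lay between 3143 ± 34.1 CPM in pta1-T524M and 3274 ± 1.46 CPM in cft1-L249Q among the mutants.

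As a group, the members were called higher more often than genes in general in msi2-G252E and pla1-Y86L, and rises of at least 2-fold were found mainly in these 2 mutants. Each mutant was compared with the same 3 WT libraries by edgeR's quasi-likelihood test, and genes with an adjusted p below 0.05 (Benjamini-Hochberg over all genes tested) were taken as called. In msi2-G252E 45 members were called higher (42.9%) against 29.3% of all genes, and 13 lower (12.4%) against 29.5%. The median log2 fold change was 0.16 over the members and 0.00 over all genes. In pla1-Y86L 42 members were called higher (40%) against 32.2%, and 26 lower (24.8%) against 32.4%, with a median of 0.04 against 0.00. No test of the group was made, and these shares are descriptions.

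In the other mutants the share of members called higher lay within 4 percentage points of that of all genes. In cft1-L249Q 26 members were called higher and 9 lower, against 22.3% and 21.0% of all genes. In pfs2-V180F the counts were 27 and 13, against 24.1% and 24%. In pta1-T524M they were 21 and 17, against 18.7% and 19.8%. In pfs2-E104A they were 15 and 10, against 18.1% and 16.1%. In ysh1-L74F they were 10 and 4, against 7.57% and 6.84%. The members called lower were thus 8.57% of those tested in cft1-L249Q and 16.2% in pta1-T524M. Some of the smaller counts changed when a library was left out. The 9 lower in cft1-L249Q became 4 without WT replicate 3 and 5 without cft1-L249Q replicate 1. The 15 higher in pfs2-E104A became 9 without WT replicate 1. The 4 lower in ysh1-L74F became 2 without WT replicate 1 or 3 and 1 without ysh1-L74F replicate 1 or 2. The lower counts in cft1-L249Q and ysh1-L74F fell whichever WT or mutant library was left out, to 4 to 7 and 1 to 3. Those falls were thus not particular to 1 library. In the authors' deposited tables, at the same adjusted p, 45 members were higher and 13 lower in msi2-G252E and 42 and 26 in pla1-Y86L. Those tables give an adjusted p for all 108 members in these 2 mutants. The equal counts are not all the same genes: 43 higher members in msi2-G252E and 41 in pla1-Y86L were called in both analyses. The 13 and 26 lower members were the same. The counts of lower members in the authors' deposited tables were 17 in pfs2-E104A and 7 in ysh1-L74F, more than the 10 and 4 above. The number of lower members in these mutants therefore depended on the analysis. The share of all genes called in the deposited tables was not counted, so the members' counts there have no background beside them.

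**Figure D1:**
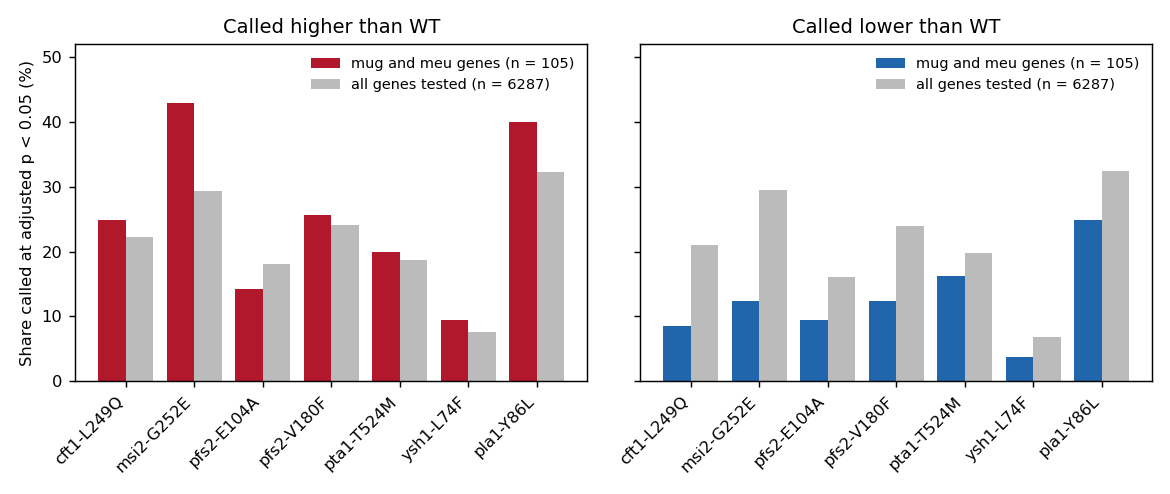
Share of genes called higher (left) and lower (right) than WT at adjusted p under 0.05, in percent, for the 105 tested mug and meu genes (coloured bars) and all 6287 genes tested (grey bars) in each mutant. The coloured bar stands furthest above the grey one for genes called higher in msi2-G252E, at 42.9% against 29.3%, and the members' bars for genes called lower are below the grey bars in each mutant.

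Large changes were few outside msi2-G252E and pla1-Y86L. At least 2-fold higher and called were 14 members in pla1-Y86L, against 4.85% of all genes, and 11 in msi2-G252E, against 4.39%. There were 3 in pta1-T524M (mug35, mug27 and mug108), against 1.22%; this count fell to 1 without pta1-T524M replicate 1. There were 2 in pfs2-V180F (mug125 and mug147), against 2.47%, and 1 without pfs2-V180F replicate 2. None of the tested members rose that far in cft1-L249Q, pfs2-E104A or ysh1-L74F, where 1.67%, 0.732% and 0.27% of all genes did, although 1 did in cft1-L249Q without its replicate 3. At least 2-fold lower were 3 members in msi2-G252E, against 1.62%, and 1 each in pfs2-E104A, pfs2-V180F and pta1-T524M, against 0.716%, 0.891% and 0.954%. There were 0 such members in pla1-Y86L, against 2.04%, in cft1-L249Q, against 0.891%, and in ysh1-L74F, against 0.143%. The count in pla1-Y86L became 1 without WT replicate 1 or without pla1-Y86L replicate 2 or 3.

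**Figure D2:**
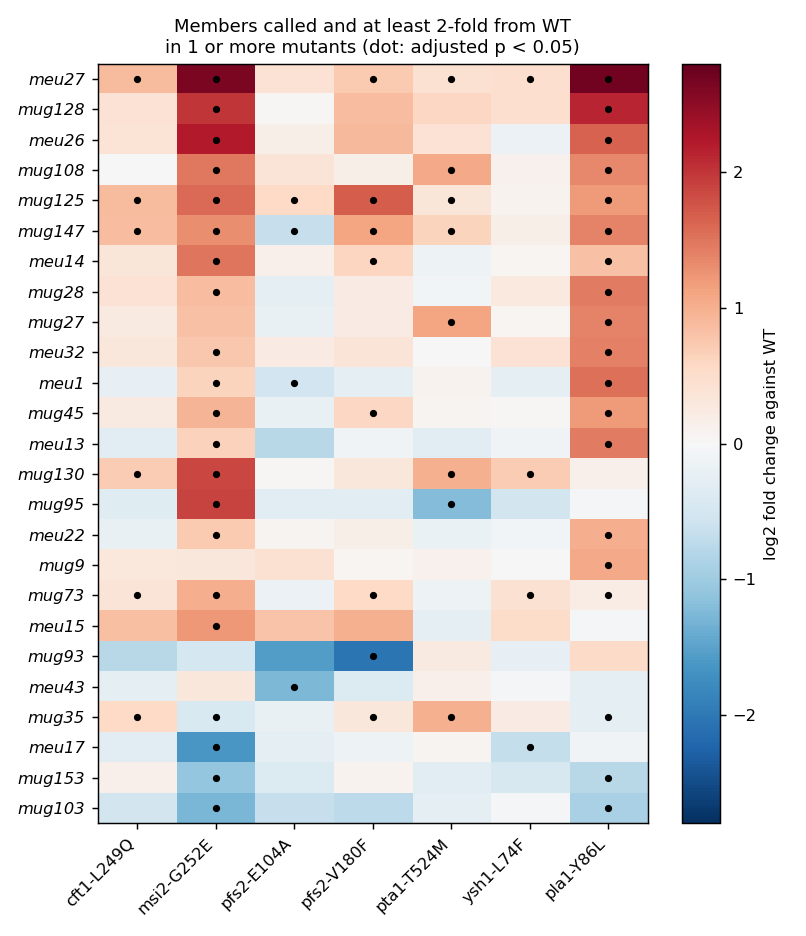
Log2 fold change against WT (colour, scale limited to ±2.8) of the 25 members that were called and at least 2-fold from WT in 1 or more mutants; a dot marks an adjusted p under 0.05. The upper part of the plot is red mainly in the msi2-G252E and pla1-Y86L columns, with meu27 the deepest in both (2.63 and 2.69), while mug95 is red in msi2-G252E (1.89) and blue in pta1-T524M (-1.21).

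In these 2 mutants the members of lower level had the higher median change and the stronger balance towards rises, and low-level genes in general did too. They were not clearly called more often: 29 of 52 such members and 29 of the 53 others were called in msi2-G252E, and 31 and 37 in pla1-Y86L. Divided at a mean of 13.2 CPM, the 52 members below this level held 24 higher and 5 lower in msi2-G252E, with a median log2 fold change of 0.35, whereas 36.4% and 14.8% of the 1524 tested genes below the same level were higher and lower, with a median of 0.21. In pla1-Y86L the counts were 24 higher and 7 lower with a median of 0.29, against 37.5% and 17.3% and a median of 0.22. Above that level, 21 of 53 members were higher and 8 lower in msi2-G252E, beside 27.0% and 34.2% of all such genes, and 18 higher and 19 lower in pla1-Y86L, beside 30.6% and 37.2%. The part of expression level in the members' shares was not tested further.

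**Figure D3:**
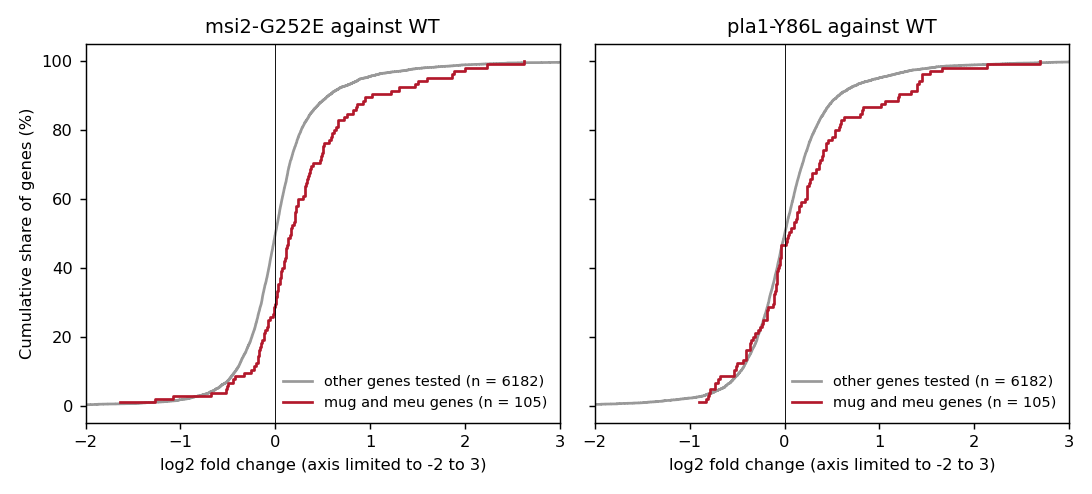
Cumulative share of genes (percent, vertical) by log2 fold change against WT (horizontal, limited to -2 to 3) for the 105 tested members (red) and the 6182 other genes tested (grey), in msi2-G252E (left) and pla1-Y86L (right). The red curve lies to the right of the grey over most of its range in msi2-G252E (median 0.16 against 0.00 for all genes). In pla1-Y86L the medians are closer (0.04 against 0.00). The lowest member there is at -0.9, while 2.04% of all genes tested were called at least 2-fold lower.

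The member with the greatest rise in both mutants was meu27, whose product is not described in the annotation. It stood at 1.79, 1.87 and 1.65 CPM in the WT libraries, at 11.5, 10.8 and 10.6 CPM in msi2-G252E and at 12.4, 10.6 and 11.4 CPM in pla1-Y86L. All 6 mutant libraries lay far above WT, and the log2 fold changes were 2.63 ± 0.13 (SE; adjusted p = 5.03e-14) and 2.69 ± 0.13 (adjusted p = 2.9e-14). The 2 mutants differed from each other by -0.07 ± 0.10 on the log2 scale (adjusted p = 0.558). Smaller rises of meu27 were called in cft1-L249Q (0.88) and pfs2-V180F (0.74). Those in ysh1-L74F (0.48) and pta1-T524M (0.42) were lost in DESeq2 and without each of several single libraries: WT replicate 1, 2 or 3, or replicate 1 or 2 of the mutant. In pfs2-E104A the value was 0.41 with an adjusted p of 0.0518. The gene overlaps chk1 on the opposite strand, a checkpoint kinase gene that was at 59.2 CPM in WT and changed by -0.12 in msi2-G252E (not called) and -0.21 in pla1-Y86L (called lower), while the upstream neighbour ppc1 was not called in either mutant. Because the strand setting of the counting is not given in the sources used here, reads of a member and of an opposite overlapping gene cannot be told apart; 65 of the 105 tested members have such a partner.

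The members meu13 and mug20 are genes of meiotic chromosomes and were picked for that role; the full lists of recombination and sporulation genes are counted further on. Transcripts of meu13, which encodes the homologous-pairing protein Hop2, were at 1.21, 1.59 and 0.862 CPM in WT and at 2.92, 3.35 and 3.70 CPM in pla1-Y86L, a log2 fold change of 1.45 ± 0.23 (adjusted p = 1.21e-05). The libraries of the 2 groups did not overlap. In msi2-G252E meu13 rose less (0.66), a call that was lost without WT replicate 1 (0.66), WT replicate 3 (0.46) or msi2-G252E replicate 2 (0.54), and the 2 mutants differed by -0.79 ± 0.22 (adjusted p = 0.00269). By contrast, mug20, a component of the meiotic chromosome axis, was not called in any of the 7 mutants, with log2 fold changes from -0.18 to 0.12.

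The sporulation genes meu14, mug28 and mug27 act at the forespore membrane, and each rose in pla1-Y86L. In the whole list of 26 sporulation genes, however, 11 were lower there and 7 higher, beside 32.4% and 32.2% of all genes. For meu14, a PIL domain protein of that membrane, WT libraries held 2.96, 3.38 and 4.35 CPM, msi2-G252E libraries 10.2, 9.32 and 11 CPM and pla1-Y86L libraries 6.69, 6.06 and 6.24 CPM. It rose by 1.51 ± 0.13 in msi2-G252E and 0.82 ± 0.13 in pla1-Y86L, a difference of 0.68 ± 0.12 between them (adjusted p = 2.33e-05), and by 0.60 in pfs2-V180F. The RNA-binding protein gene mug28 showed the opposite order: 1.42, 1.67 and 1.39 CPM in WT, 2.86, 2.7 and 2.60 CPM in msi2-G252E and 3.29, 3.87 and 5.05 CPM in pla1-Y86L. Its rises were 0.86 and 1.45, and the 2 mutants differed by -0.58 ± 0.19 (adjusted p = 0.0102). The protein kinase gene mug27, also called slk1, was at 0.541, 0.756 and 0.562 CPM in WT and at 1.5, 1.42 and 1.96 CPM in pla1-Y86L, where it rose by 1.39 ± 0.35 (adjusted p = 0.00132); its antisense RNA SPNCRNA.583 rose there by 1.55. In pta1-T524M mug27 was called at 1.10, but its libraries (0.706, 2.06 and 1.31 CPM) overlapped WT, and the call was lost without WT replicate 1 (1.03), WT replicate 3 (1.04) or pta1-T524M replicate 2 (0.70).

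The spore wall assembly genes mug56 and mug65 had log2 fold changes of -0.50 (called lower) and -0.09 (not called) in pla1-Y86L, and in msi2-G252E mug65 rose by 0.29 while mug56 was not called. The GPI-anchored protein gene meu10, which acts in spore wall formation, was called only in pta1-T524M, at -0.67; calls and the lack of a call in the other mutants were not compared with each other by a test. Genes of 2 carbohydrate-splitting enzymes are among the members that fell: meu7, an alpha-amylase gene, changed by -0.83 in pla1-Y86L, and meu17, a glucan 1,4-alpha-glucosidase gene, fell in msi2-G252E.

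For meu17 the WT libraries held 1.79, 1.31 and 1.69 CPM and the msi2-G252E libraries 0.632, 0.595 and 0.305 CPM. Every msi2-G252E library was below every WT library, and the log2 fold change was -1.63 ± 0.24 (adjusted p = 3.47e-06). In pla1-Y86L it was -0.10 (adjusted p = 0.649), and the 2 mutants differed by -1.53 ± 0.24 (adjusted p = 6.96e-06). The antisense RNA SPNCRNA.1494, which overlaps meu17, rose by 1.87 in msi2-G252E from 13.7 CPM in WT, and the opposite gene ilv6 fell by 0.58 there. A smaller fall of meu17 in ysh1-L74F (-0.67) was lost without any of WT replicates 1 or 3 or ysh1-L74F replicates 1, 2 or 3, at values of -0.58 to -0.70.

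Several members without a described product rose in pla1-Y86L more than in msi2-G252E. For meu1 the libraries held 8.08, 7.60 and 8.81 CPM in WT, 13.6, 12.7 and 11.4 CPM in msi2-G252E and 24.7, 21.4 and 24.9 CPM in pla1-Y86L. The 3 groups did not overlap; the rises were 0.62 ± 0.10 and 1.54 ± 0.10, and the difference between the mutants was -0.91 ± 0.10 (adjusted p = 1.86e-08). In pfs2-E104A meu1 was lower than WT (-0.53). For meu32 the WT libraries held 1.38, 0.756 and 1.46 CPM and the pla1-Y86L libraries 3.18, 3.22 and 3.23 CPM, a rise of 1.42 against 0.76 in msi2-G252E and a difference of -0.66 ± 0.16 (adjusted p = 0.00128). For mug9 the WT libraries held 2.25, 1.95 and 2.51 CPM and the pla1-Y86L libraries 4.50, 3.48 and 5.95 CPM. It rose there by 1.06 ± 0.19, while its downstream neighbour on the same strand, SPCC70.08c, fell by 1.60, and it was not called in any other mutant. The amino-acid permease gene meu22 rose by 1.01 in pla1-Y86L and 0.72 in msi2-G252E, values that differed by -0.29 ± 0.13 (adjusted p = 0.0538); its antisense RNA SPNCRNA.417 rose in both, by 2.56 and 2.42.

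**Figure D4:**
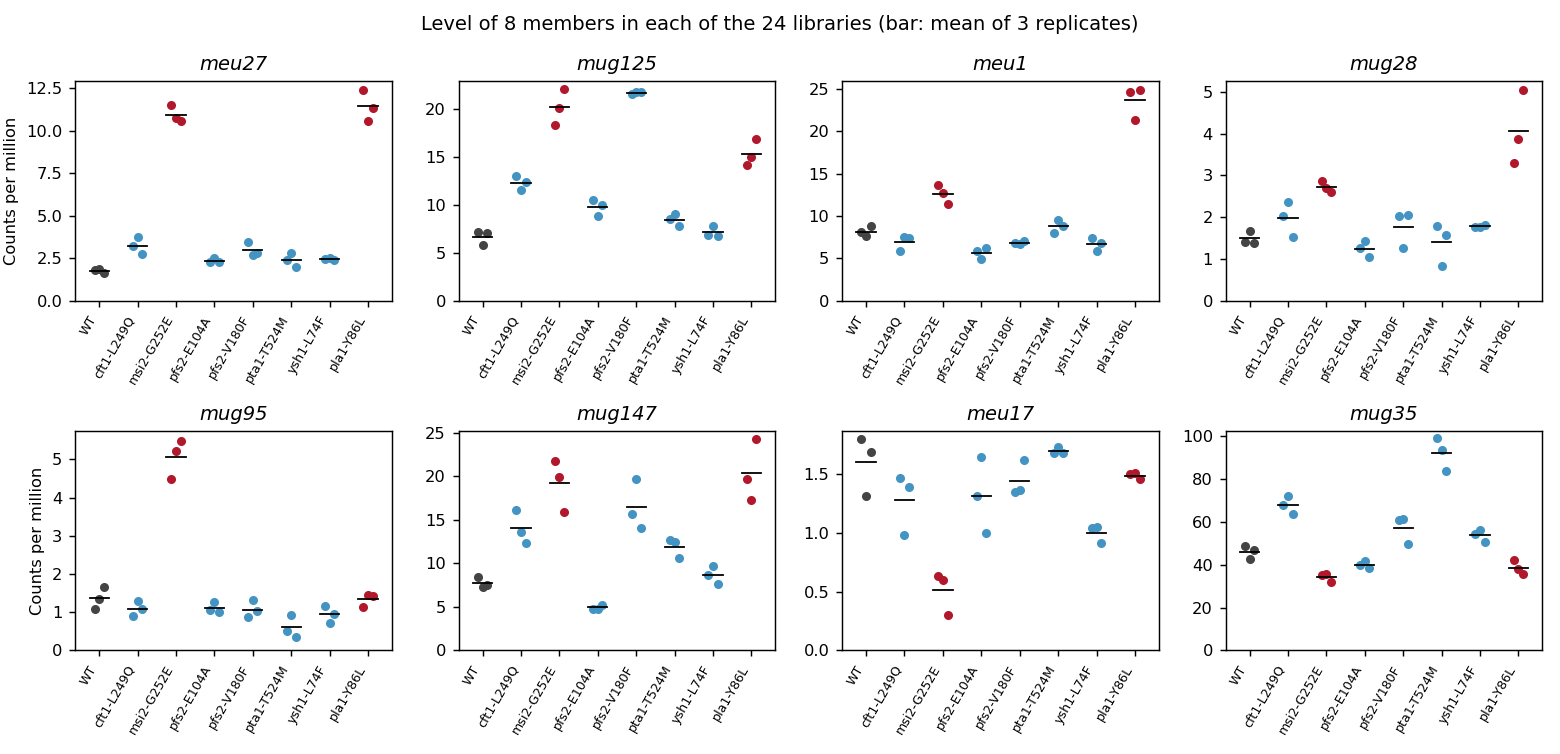
CPM (vertical, from 0) of 8 members in each of the 24 libraries, as points by group with a bar at the mean of the 3 replicates; WT is grey, msi2-G252E and pla1-Y86L are red and the other mutants blue. For meu27 both red groups stand above all others, for meu1 and mug28 the pla1-Y86L points are the highest, for mug95 only the msi2-G252E points rise above 2 CPM, and for mug147 the pfs2-E104A points lie below those of WT.

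Other members rose in msi2-G252E and hardly or not in pla1-Y86L. For mug95 the libraries held 1.08, 1.35 and 1.65 CPM in WT, 4.50, 5.24 and 5.50 CPM in msi2-G252E and 1.13, 1.46 and 1.42 CPM in pla1-Y86L. All 3 msi2-G252E libraries lay above WT and those of pla1-Y86L within its range, with a log2 fold change in msi2-G252E of 1.89 ± 0.19 (adjusted p = 1.88e-08), and msi2-G252E exceeded pla1-Y86L by 1.92 ± 0.19 (adjusted p = 9.15e-09). In pta1-T524M mug95 was lower than WT, at 0.520, 0.927 and 0.364 CPM (-1.21 ± 0.28, adjusted p = 0.00156). The antisense RNA SPNCRNA.1045 was at 10.9 CPM in WT and was not called in either mutant. The transporter gene mug73 rose from 10.2, 10.7 and 10.6 CPM in WT to 22.6, 21.4 and 19.96 CPM in msi2-G252E (1.02 ± 0.07, adjusted p = 4.53e-11), and msi2-G252E exceeded pla1-Y86L by 0.81 ± 0.07 (adjusted p = 1.33e-09). For mug130 the msi2-G252E libraries held 5.58, 6.82 and 6.07 CPM against 2.21, 1.15 and 1.72 CPM in WT, a rise of 1.86 ± 0.18, and it rose by 0.99 in pta1-T524M; its value in pla1-Y86L was 0.15 (adjusted p = 0.574).

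The 2 alleles of pfs2, which encodes a WD-repeat subunit of the cleavage and polyadenylation factor, differed at many members, most of them lower in pfs2-E104A. Only a few, picked by hand, are described. The share of all genes that differ between the alleles was not counted, so this is no trait of the members. For mug125, with 7.21, 5.81 and 7.05 CPM in WT, the libraries held 21.6, 21.8 and 21.8 CPM in pfs2-V180F and 10.5, 8.84 and 9.96 CPM in pfs2-E104A. It rose by 1.70 ± 0.10 and 0.55 ± 0.10, and pfs2-E104A was below pfs2-V180F by a log2 difference of -1.15 ± 0.09 (adjusted p = 1.75e-09). It also rose in msi2-G252E (1.59), pla1-Y86L (1.20), cft1-L249Q (0.89) and pta1-T524M (0.34, lost without WT replicate 2, at 0.25, or pta1-T524M replicate 2, at 0.29). Neither sle1, on the opposite strand, nor meu31, downstream, was called in pfs2-V180F.

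For mug147 the alleles moved in opposite directions. Its libraries held 8.46, 7.32 and 7.50 CPM in WT, 4.75, 4.82 and 5.24 CPM in pfs2-E104A and 15.7, 19.7 and 14.1 CPM in pfs2-V180F. The 3 groups did not overlap, with log2 fold changes of -0.65 ± 0.18 (adjusted p = 0.00693) and 1.09 ± 0.15 (adjusted p = 2.56e-06) and a difference of -1.75 ± 0.16 between the alleles (adjusted p = 1.93e-08). It rose also in pla1-Y86L (1.40), msi2-G252E (1.31), cft1-L249Q (0.86) and pta1-T524M (0.62). Its downstream neighbour on the same strand, tam13, rose by 0.69 in msi2-G252E and 0.47 in pla1-Y86L, and its antisense RNA SPNCRNA.1668 by 0.36 and 0.49. In pfs2-E104A neither was called.

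The members meu43 and mug114 also set the alleles apart. For meu43 the WT libraries held 2.79, 2.79 and 2.32 CPM, those of pfs2-E104A 1.19, 1.00 and 1.05 CPM and those of pfs2-V180F 2.40, 1.43 and 2.29 CPM. It fell by 1.27 in pfs2-E104A (SE 0.20, adjusted p = 5.29e-05), was not called in pfs2-V180F, and differed by -0.88 ± 0.21 between the alleles (adjusted p = 0.00216). For mug114 the rise was 0.81 in pfs2-E104A and the difference 0.69 ± 0.20 (adjusted p = 0.00736). The tetratricopeptide-repeat gene mug93 was called lower in pfs2-V180F, but on few reads, with 7, 3 and 12 in the WT libraries and 0, 3 and 2 in those of pfs2-V180F. Its value of -2.04 lost the call without WT replicate 1 (-2.03) or 3 (-1.54) or pfs2-V180F replicate 1 (-1.59) or 3 (-2.17), and its antisense RNA SPNCRNA.1435 rose by 2.0.

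In pta1-T524M the change in mug35 was the clearest against its replicate spread among the 3 members that rose at least 2-fold. Its libraries held 48.8, 42.6 and 46.6 CPM in WT and 99.0, 93.4 and 83.7 CPM in pta1-T524M, all above WT, a rise of 1.00 ± 0.08 (adjusted p = 9.81e-10). It was higher also in cft1-L249Q (0.56) and pfs2-V180F (0.31), and lower in msi2-G252E (-0.42) and in pla1-Y86L (-0.26, lost without WT replicate 1, at -0.21, or pla1-Y86L replicate 3, at -0.19). For mug108 the rises were 1.47 in msi2-G252E, 1.33 in pla1-Y86L and 1.06 in pta1-T524M; the last was lost without WT replicate 3 (0.85).

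Some members of moderate level were higher in most mutants by a small amount, in comparisons that share the WT libraries. For meu18 the WT libraries held 50.1, 54.0 and 49.9 CPM, and the log2 fold changes were 0.86 and 0.47 in pfs2-V180F and pfs2-E104A, 0.54 in the cft1-L249Q strain, 0.51 and 0.41 in msi2-G252E and pla1-Y86L, and 0.39 in ysh1-L74F, all called, beside -0.06 in pta1-T524M. The arrestin-family gene mug170 was at 24.4, 24.6 and 26.4 CPM in WT. It was called in each mutant except pla1-Y86L, from 0.23 in pta1-T524M to 0.72 in pfs2-V180F, and its value in pla1-Y86L was 0.07 (adjusted p = 0.352). The RNA-binding protein gene mug24 ranged from 0.24 in pfs2-E104A (not called) to 0.67 in pta1-T524M, and the alpha-1,6-mannanase gene mug191 from -0.01 in pfs2-E104A (not called) to 0.59 in msi2-G252E.

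The most weakly measured members that rose should be read by their reads. For mug128 the WT libraries held 5, 1 and 1 reads, and its log2 fold changes of 2.0 in msi2-G252E and 2.13 in pla1-Y86L became 3.17 and 3.30 without WT replicate 1. For meu26 the WT libraries held 0.125, 0.239 and 0.262 CPM, those of msi2-G252E 1.34, 0.833 and 0.840 CPM and those of pla1-Y86L 0.658, 0.559 and 0.799 CPM, and the rises were 2.23 ± 0.38 and 1.66 ± 0.41. Only in these 2 mutants did each meu26 library hold at least 10 reads. Members this low can pass the filter only through the groups where they are high, so their rises are partly selected. Both mug128 and meu26 are among the members counted above as at least 2-fold higher in these 2 mutants. The rise of meu15 in msi2-G252E (1.22, adjusted p = 0.0302) was lost without WT replicate 2 (1.04) or 3 (1.19) or msi2-G252E replicate 1 (1.25) or 3 (1.15). Members that fell in msi2-G252E at low level were mug153 (-1.08) and mug103 (-1.27), the latter lost without WT replicate 2 (-0.97).

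Of the 105 tested members, 10 were called in no mutant, beside 6.47% of all genes tested. With these included, 54 members were in no mutant both called and at least 1.5-fold from WT. The share of all genes for that second count was not taken, so it has no background beside it. The glycerate kinase gene mug58 was at 97.3 CPM in WT and was not called in any mutant, with values from -0.07 to 0.08. For mug161, a CwfJ-family splicing factor gene at 152 CPM in WT, the value was 0.30 in cft1-L249Q and between -0.09 and 0.10 elsewhere. The coilin gene mug174 ranged from -0.20 in pfs2-V180F, a call lost without WT replicate 1 (-0.15) or pfs2-V180F replicate 2 (-0.17), to 0.11 in msi2-G252E. The BAR-domain gene mug64, at 473 CPM in WT, was lower in msi2-G252E (-0.45) and higher in pla1-Y86L (0.23). Falls of moderate size occurred too: in pla1-Y86L the acetate transporter gene mug86 (-0.81), the pleckstrin-homology gene meu6 (-0.80) and the oxidoreductase gene mug72 (-0.74) were among the members called lower.

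Each mutant was also set against the mean of the other 6 mutants, a comparison that uses no WT library. Counts here are out of the 105 tested members, while shares are percentages of all genes tested, so the 2 are not on the same scale. The members that differed were 70 in pla1-Y86L (39 above and 31 below), against 71.4% of all genes, and 58 in msi2-G252E (45 above and 13 below), against 59.9%. They were 47 in pta1-T524M (17 above and 30 below), against 49.9%, 44 in pfs2-E104A (14 above and 30 below), against 48.7%, and 34 in pfs2-V180F (23 above and 11 below), against 43.0%. The counts were 32 in ysh1-L74F (13 above and 19 below), against 35.0%, and 25 in cft1-L249Q (14 above and 11 below), against 35.8%. Over 105 members, the shares that differed were near those of all genes or below them. In msi2-G252E 42.9% of members were above and 12.4% below, beside 30.1% and 29.7% of all genes. In pla1-Y86L these shares were 37.1% and 29.5%, beside 35.8% and 35.6%. In cft1-L249Q they were 13.3% and 10.5%, beside 20.1% and 15.7%. Members were below the other mutants more often than above in pta1-T524M (28.6% and 16.2%, beside 24.8% and 25.1% of all genes) and in pfs2-E104A (28.6% and 13.3%, beside 22.8% and 25.9%). The counts for pta1-T524M, ysh1-L74F and cft1-L249Q became 30 without pta1-T524M replicate 3, 21 and 20 without ysh1-L74F replicate 1 and 2, and 16 without cft1-L249Q replicate 1.

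Neighbouring genes were read from the annotation. In pla1-Y86L, of 47 members whose upstream neighbour lies on the same strand, 24 were higher and 8 lower (median 0.23), beside 32.3% and 34.9% of the 2313 tested protein-coding genes of that class. Of 58 with a divergent upstream neighbour 18 were higher and 18 lower (median -0.07), beside 29.4% and 36.9% of 2691. In msi2-G252E the counts were 25 and 6 of 47 (median 0.21), beside 27.8% and 34.0%, and 20 and 7 of 58 (median 0.11), beside 25.8% and 33.2%. With an overlapping antisense gene, 28 of 65 members were higher and 8 lower in msi2-G252E, beside 28.9% and 31.2% of 2663 protein-coding genes, and without one 17 of 40 were higher and 5 lower, beside 24.3% and 36.3% of 2341. In pla1-Y86L these counts were 27 and 12 of 65, beside 32.4% and 34.2%, and 15 and 14 of 40, beside 28.9% and 38.1%. The differences between these classes were not tested.

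Other genes of the meiotic programme were counted from lists that partly overlap the members. These counts stand beside 29.3% of all genes tested called higher and 29.5% lower in msi2-G252E, and 32.2% and 32.4% in pla1-Y86L. No test of the lists was made. Of 17 tested regulators of meiosis, 7 were higher and 4 lower in msi2-G252E, and 9 and 3 in pla1-Y86L. Transcripts of mei2, which encodes the RNA-binding protein that switches cells into meiosis, fell by 1.88 in msi2-G252E and 3.95 in pla1-Y86L, and those of the transcription factor gene ste11 fell by 1.62 and 1.49; mei4, a transcription factor gene of mid-meiosis, rose by 0.44 and 1.51. Of 23 genes of meiotic recombination and chromosomes, which include meu13, 12 were higher and 3 lower in msi2-G252E, and 14 and 5 in pla1-Y86L, among them hop1 (2.68) and mek1 (2.18) in pla1-Y86L. The meiotic cohesin gene rec8 rose by 1.49 in pla1-Y86L and was lower in msi2-G252E (-0.64). Of 26 sporulation genes, which include meu14 and mug28, 11 were higher and 5 lower in msi2-G252E, and 7 and 11 in pla1-Y86L. Of 14 factors of meiotic transcript removal, 3 were higher and 5 lower in msi2-G252E, and 8 and 4 in pla1-Y86L, where mmi1 was at -0.20.

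Markers of cells in meiosis, starved or mating were read as a check of the labelled growing haploid state. The summed level of 11 markers of meiosis averaged 106 CPM in WT and lay between 107 and 109 CPM in msi2-G252E, 105 and 118 CPM in pla1-Y86L and 119 and 122 CPM in pfs2-V180F, and none was at 0 reads in any group. Behind these sums single markers were called in both directions. Of the 11, 4 were higher and 1 lower in pfs2-V180F, 4 and 3 in msi2-G252E, and 5 and 5 in pla1-Y86L. Of all genes tested, 24.1% were higher and 24% lower in pfs2-V180F, 29.3% and 29.5% in msi2-G252E, and 32.2% and 32.4% in pla1-Y86L. Whether the markers' counts differ from these shares was not tested. The gene mei3, which encodes the inducer of meiosis, was at 0.371 CPM in WT and was the marker called in neither direction in pla1-Y86L, and it was not called in any other mutant. The summed level of 4 genes of nitrogen starvation and mating was 168 to 179 CPM in WT, 168 to 180 CPM in msi2-G252E, 135 to 140 CPM in pla1-Y86L and 225 to 282 CPM in pfs2-V180F. The M mating type markers, 5 in the table, summed to 111 to 135 CPM in WT and 47.2 to 51.6 CPM in the h+ cft1-L249Q strain, but also to 56.6 to 61.8 CPM in pla1-Y86L. The 4 P markers summed to 80.4 to 84.5 CPM in WT, 65.9 to 74.2 CPM in cft1-L249Q and 53.6 to 63.3 CPM in pla1-Y86L. Their part in the members' changes was not tested.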

How the data were processed

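The authors deposited a table of raw read counts per gene for 24 libraries (8 groups, 3 replicates each), and for each mutant a table of DESeq2 log2 fold changes and adjusted p-values against WT. HISAT2 2.1.0, SAMtools, HTSeq 0.10.0, DESeq2 and the build ASM294v2 are credited to the submitters' processing notes. Whether counting used strand, and which annotation it used, is not given in the sources used here. Libraries held 19368216 to 29297880 counts. Groups were taken from the labels.

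From the counts, genes were filtered with filterByExpr (minimum count 10), scaled by TMM and fitted over all 24 libraries with edgeR 4.0.16 (glmQLFit and glmQLFTest, R 4.3.3), with Benjamini-Hochberg adjustment over 6287 genes and a threshold of 0.05. Standard errors are the log2 fold change divided by the square root of F. CPM use the TMM-scaled library sizes. The common biological coefficient of variation was 4.9%, and replicates differed by more than counting noise (chi-square per degree of freedom 2.6 to 23.8). The code was tested on simulated data. Alternatives were DESeq2 1.42.0, median-of-ratios scaling, no filter, only the mutant and WT libraries, a replicate block and leaving out each library. P-values measure only the spread between these replicates.

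Symbols, products and neighbours came from the annotation of the ASM294v3 assembly, which matched 6836 of 6988 identifiers; no coordinates, lengths or sequences were used, since the build differs. Promoter motifs and a ranking of levels per length were not analysed here. Members named were, per mutant, the 5 largest rises and falls among called members whose libraries did not overlap WT, those called the same way in 6 or 7 mutants, those at least 1.5-fold higher in 1 mutant and lower in another, and members of known role. The genes meu15, meu32 and mug27 were named after their values were seen, for being at least 2-fold from WT, and mug20, mug56, mug58, mug64 and mug65 to show roles and members that moved little. The members and the lists were chosen with earlier results of these data known.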

Additional observations from a re-analysis of the deposited data

Results flagged for a closer look

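The gene mug95 changed in opposite directions in 2 mutants. It was higher than WT in msi2-G252E (1.89 on the log2 scale) and lower in pta1-T524M (-1.21), and the test of the difference between these mutants gave 3.09 ± 0.22 (SE; edgeR quasi-likelihood test, adjusted p = 7e-11). Without pta1-T524M replicate 2 or 3 the difference was 3.51 or 2.82. The gene mug147 was higher than WT in pla1-Y86L (1.40) and lower in pfs2-E104A (-0.65), and these mutants differed by 2.05 ± 0.16 (adjusted p = 1.71e-10). In both cases all 3 libraries of the higher mutant lay above WT and all 3 of the lower mutant below it. Both genes were picked for these opposite calls, and each pair holds the mutants of greatest and least change for its gene. The adjusted p-values do not cover that choice, so the tests of the difference are no separate support. The causes were not tested.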

How the results depend on the processing

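Of 189 called values of named members, 140 kept direction and call in every alternative and none reversed in any; of the 49 others, each lost its call without some single library, and 16 with only the mutant and WT libraries, 5 in DESeq2, 2 with median-of-ratios scaling and 2 without the filter. With only the mutant and WT libraries, 1 member was lower in ysh1-L74F in place of 4. Leaving out single libraries gave 4 to 7 members lower in cft1-L249Q, 9 to 16 higher in pfs2-E104A and 1 to 3 lower in ysh1-L74F; against the other mutants it gave 16 to 26 in cft1-L249Q, 30 to 41 in pta1-T524M and 20 to 25 in ysh1-L74F. The cause was not tested. In msi2-G252E the counts were 40 to 45 higher and 11 to 13 lower, in place of 45 and 13. In pla1-Y86L they were 39 to 40 higher and 20 to 23 lower, in place of 42 and 26. Against the other mutants they were 49 to 53 in msi2-G252E and 62 to 66 in pla1-Y86L, in place of 58 and 70. Same-numbered libraries correlated between -0.103 and 0.211, not above 0.1 in each pair, so the numbers were not taken to pair the samples; 14 of 24 libraries correlated best with their own number, a hint of shared structure from the data and not from the design. A replicate block gave 45 higher and 13 lower in msi2-G252E, 42 and 26 in pla1-Y86L, 26 and 8 in cft1-L249Q, 13 and 14 in pfs2-E104A, 27 and 13 in pfs2-V180F, 22 and 17 in pta1-T524M and 12 and 4 in ysh1-L74F, and ended 2 named calls, those of mug86 in cft1-L249Q (-0.20) and pfs2-E104A (0.21). Depth limits the members under 1 CPM, whose standard errors are the widest.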
